A study of Mus musculus with 20 samples.

Results

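The 34 genes described here are cell cycle and proliferation genes chosen by symbol, out of 32081 genes with a deposited level in RNA of the mouse aortic endothelium. They were sorted by role into G1/S cyclins (2 genes), replication licensing, helicase and fork genes (9), nucleotide synthesis (2), the later cyclins with their kinase Cdk1 (4), spindle checkpoint and anaphase genes (5), mitotic kinases with spindle and cytokinesis genes (8), the proliferation markers Mki67 and Top2a (2), and the CDK inhibitors Cdkn1a and Cdkn1c (2). Of the 34, 33 had a mean level of at least 0.5 FPKM (fragments scaled to gene length and to the library's assigned reads) and were tested among 16848 genes. The exception was Kif11, a spindle motor gene, with 1 read over all 20 libraries.

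All 20 mice were female Apoe-/- animals of strain B6.129P2-Apoetm1Unc/J, which lack apolipoprotein E and develop atherosclerosis, on regular chow, and all had 5/6 nephrectomy, a kidney-reducing surgery, at 9 weeks of age. At 7 weeks after surgery each received 1 retro-orbital injection, and RNA was taken 1 week later by shearing and lysing the inner layer of the aorta. The 5 groups of 4 mice were given saline, HDL (4 mg), HDL with LNA92a (20 mg/kg), HDL with LNA489 (20 mg/kg), or HDL with both (40 mg/kg of LNA in all, the dual group). The series title names miR-92a-3p and miR-489-3p as the microRNAs inhibited, and LNA stands for locked nucleic acid, a modified antisense chemistry. Every group carried the Apoe deletion and the nephrectomy, so neither differs between the groups compared, and no group without either was analysed here. None of the 5 groups was given a control LNA, and the dual group had more LNA in all. Effects of LNA chemistry or total dose therefore cannot be told apart from those of inhibiting the microRNAs. Cell makeup also varied between mice, as described below. A mouse is called by its treatment and number, as in HDL 11. The LNA92a and LNA489 mice had HDL too.

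Cells that divide copy their DNA in S phase and separate the copies in mitosis. Cyclin E with its kinase starts S phase, the Mcm helicase opens the DNA at replication origins, and E2F transcription factors drive these early genes. The later genes (cyclin A and B, Cdk1, the spindle checkpoint and the mitotic kinases) are switched on through the MuvB complex with B-Myb and Foxm1, which works at promoters with a cell cycle homology region (CHR) and CCAAT boxes. Endothelium of the adult aorta divides rarely, while immune cells that are activated or that populate lesions can divide often. Cdkn1a (p21) and Cdkn1c (p57) halt the cycle: Cdkn1a is a p53 target, and Cdkn1c is an imprinted gene abundant in quiescent cells.

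The promoters of 4 members are shown because their genes moved together across mice and because they carry these motifs at different stages of the cycle: Mki67 and Ccnb2 are mitotic, Cdk1 is the central mitotic kinase and Mcm6 is a helicase subunit. Each window runs from 250 bases before to 50 after the annotated start (RefSeq, GRCm38.p6). The windows are chr7:135716330-135716629 for Mki67, chr9:70421505-70421804 for Ccnb2, chr10:69352863-69353162 for Cdk1 and chr1:128359656-128359955 for Mcm6, all on the minus strand and printed 5′ to 3′ along the gene. Capitals mark matches on either strand to CCAAT, to the CHR element TTTGAA or to the E2F-type site TTTNNCGC.
Mki67: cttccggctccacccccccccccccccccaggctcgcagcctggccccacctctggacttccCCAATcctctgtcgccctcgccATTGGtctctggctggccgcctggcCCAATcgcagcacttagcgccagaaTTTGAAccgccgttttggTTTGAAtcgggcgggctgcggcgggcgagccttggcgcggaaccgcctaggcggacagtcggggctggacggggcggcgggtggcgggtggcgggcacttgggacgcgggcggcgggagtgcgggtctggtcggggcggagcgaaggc
Ccnb2: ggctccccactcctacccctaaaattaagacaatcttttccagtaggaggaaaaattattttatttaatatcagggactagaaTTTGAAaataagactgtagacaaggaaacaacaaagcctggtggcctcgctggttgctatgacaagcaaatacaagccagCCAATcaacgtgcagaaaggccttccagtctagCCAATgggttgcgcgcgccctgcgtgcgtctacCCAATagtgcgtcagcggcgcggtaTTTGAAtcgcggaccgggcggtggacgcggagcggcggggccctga
Cdk1: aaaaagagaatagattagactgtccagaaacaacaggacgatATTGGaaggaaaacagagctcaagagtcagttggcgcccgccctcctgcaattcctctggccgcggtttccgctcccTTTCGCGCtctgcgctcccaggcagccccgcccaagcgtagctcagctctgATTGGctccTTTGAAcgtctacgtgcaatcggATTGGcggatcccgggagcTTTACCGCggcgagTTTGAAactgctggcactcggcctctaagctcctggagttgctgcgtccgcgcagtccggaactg
Mcm6: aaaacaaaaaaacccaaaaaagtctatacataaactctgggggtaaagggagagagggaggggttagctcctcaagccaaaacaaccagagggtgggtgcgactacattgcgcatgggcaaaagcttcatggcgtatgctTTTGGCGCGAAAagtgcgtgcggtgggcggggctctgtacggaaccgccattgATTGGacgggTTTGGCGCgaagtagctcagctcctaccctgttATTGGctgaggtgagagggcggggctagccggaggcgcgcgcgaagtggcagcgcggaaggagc

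The Mki67 window held 3 CCAAT boxes and 2 CHR elements, the latter at -116 and -98 from the start, and the Ccnb2 window held the same numbers. The Cdk1 window held 3 CCAAT boxes, 2 CHR elements and 2 E2F-type sites. The Mcm6 window held 2 CCAAT boxes and no CHR element, with E2F-type matches at -110, -106 and -47, of which the first and second overlap. Of the 34 members, 27 had such windows: CCAAT was found in 22 of them (81.5%, against 41.1% of 27025 genes with a window), TTTGAA in 13 (48.1%, against 20.2%) and TTTNNCGC in 7 (25.9%, against 5.93%). Both CCAAT and TTTGAA stood in 13 windows (48.1%, against 8.97%). High shares of the single motifs were not particular to the members. In the other gene lists used below the CCAAT share ran from 45.5% (5 of 11 imprinted growth genes) to 80.0% (8 of 10 p53 targets). The TTTGAA share there ran from 9.09% (imprinted growth genes) to 73.1% (19 of 26 other mitosis genes). For TTTNNCGC it ran from 10.0% (p53 targets) to 41.7% (regulators around E2F, RB and MuvB). The E2F-type letters were in 5 of 8 replication windows and in none of the 5 spindle checkpoint or 5 mitotic kinase windows, while TTTGAA was in 2 of 8, 3 of 5 and 4 of 5. Neither of the 2 Cdkn1a windows held any of the 3 motifs. These matches describe letters in a window and do not show a bound factor.

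Endothelial markers were detected in every library, but their share varied: Pecam1, an endothelial adhesion gene, ranged from 10.8 FPKM in HDL 4 to 1008.5 in HDL 23. Macrophage, T cell, B cell, adipocyte and fibroblast markers were also present, so the libraries hold RNA of several cell types, and the cell in which a proliferation gene was transcribed cannot be read from them. Fewer cells of a type and less RNA per cell cannot be told apart in bulk RNA. HDL 11 stood apart in its B cell markers, whose summed level reached 1062 FPKM there and at most 142 in the mice of any other group. Assigned reads numbered 11.6 to 21.4 M per library. The mice of a group are biological replicates per the series' design text.

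The proliferation markers differed widely between mice. Mki67 (ENSMUSG00000031004.8, chr7:135689784-135716361 on GRCm38), the Ki-67 gene of cycling cells, stood at 17.1, 3.66, 36.7 and 16.1 FPKM in Saline 1, 2, 9 and 24. In HDL 3, 4, 11 and 23 it stood at 8.98, 1.23, 49.9 and 6.61 FPKM. In the LNA92a group (mice 5, 12, 17 and 18) Mki67 was at 6.74, 4.04, 5.44 and 3.20 FPKM, in the LNA489 group (7, 13, 14 and 19) at 1.21, 20.6, 9.51 and 10.6, and in the dual group (8, 10, 15 and 21) at 5.40, 13.5, 6.38 and 21.0. Highest were HDL 11 and Saline 9, lowest were LNA489 7 and HDL 4, and the ranges of all 5 groups overlapped. These levels rest on 190 to 7435 reads per library. Top2a (chr11:98992943-99024189), the topoisomerase that untangles replicated DNA, ranged from 0.481 FPKM in HDL 4 to 26.3 in HDL 11, with 22.8 in Saline 9 and 0.645 in LNA489 7, so the same 4 mice held its extremes.

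**Figure D1:**
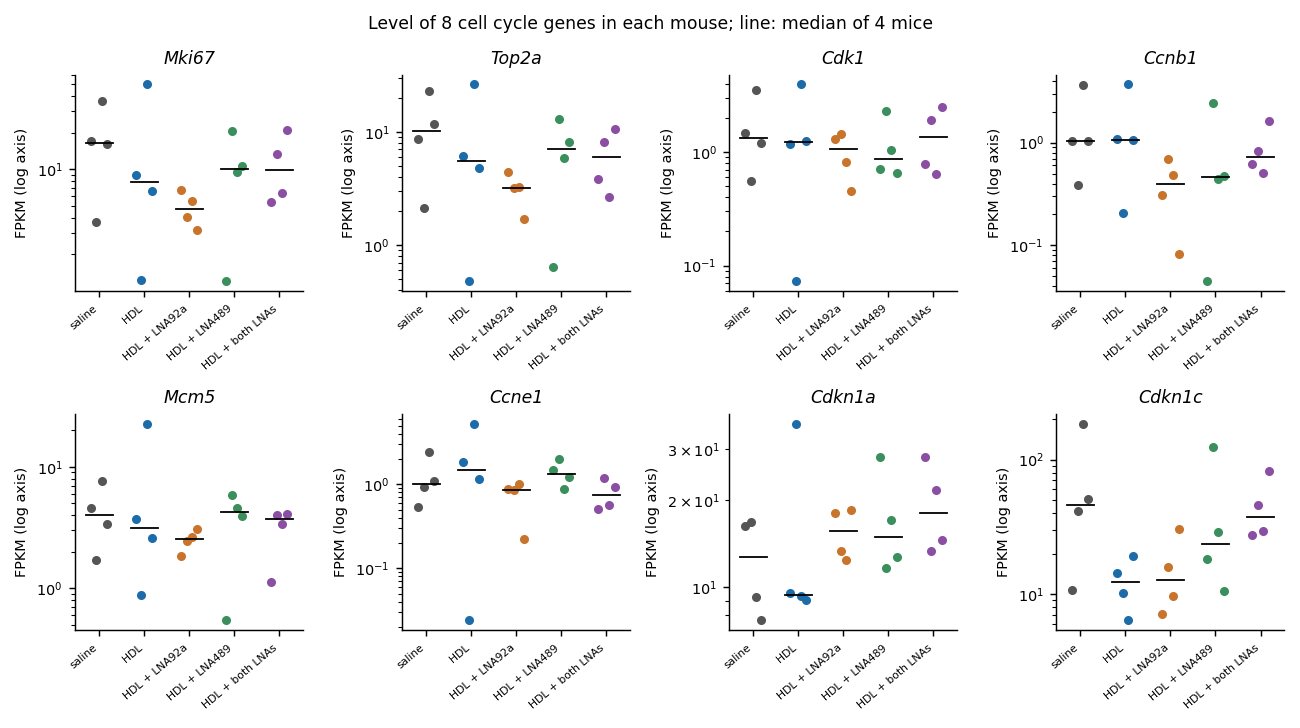
FPKM (log axis) of 8 cell cycle genes in each mouse by treatment group; each point is 1 mouse and each line the median of 4. The HDL group holds both the highest Mki67 level (49.9, HDL 11) and nearly the lowest (1.23, HDL 4), while its 4 Cdkn1c levels lie between 6.40 and 19.1.

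The later cyclins and Cdk1 followed the same mice. Cdk1 (chr10:69335146-69352938), the kinase that drives entry into mitosis, ran from 0.073 FPKM in HDL 4 to 3.94 in HDL 11 and 3.49 in Saline 9, with group medians of 1.34 (saline), 1.22 (HDL), 1.06 (LNA92a), 0.869 (LNA489) and 1.35 (dual). Ccnb1 (chr13:100778650-100786570), a mitotic cyclin that activates Cdk1, ran from 0.045 in LNA489 7 (3 reads) to 3.69 in HDL 11 and 3.62 in Saline 9. Its group medians were 1.04 (saline), 1.07 (HDL), 0.398 (LNA92a mice), 0.458 (LNA489 mice) and 0.724 (dual), and the ranges overlapped. The other 2 cyclins, Ccnb2 and Ccna2, had means over the 20 libraries of 4.51 and 3.42 FPKM. Ccna2, which acts in S phase and G2, shares 12.5% of its exon bases with Exosc9 on the other strand.

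Pcna, the sliding clamp of the polymerases, had the highest mean of the 31 tested division genes, 15.1 FPKM, and the helicase subunits Mcm2 to Mcm7 had means from 3.21 (Mcm2) to 9.26 (Mcm6). Cdc45, the helicase activator, had 2.02 and Cdc6, which loads the helicase, 0.918. Mcm5 (chr8:75109569-75128439) ranged from 0.544 FPKM in LNA489 7 and 0.881 in HDL 4 to 7.71 in Saline 9 and 22.7 in HDL 11, with group medians of 4.00 (saline), 3.13 (HDL), 2.57 (LNA92a), 4.29 (LNA489) and 3.70 (dual). HDL 11 thus had an Mcm5 level far above the next mouse. Of the S phase nucleotide enzymes, Rrm2 had a mean of 4.92 FPKM and Tyms of 1.18. Among the G1/S cyclins, Ccne1 (chr7:38097984-38107534) ran from 0.024 FPKM in HDL 4, a single read, to 5.28 in HDL 11, with medians of 1.02 and 1.50 in the saline and HDL groups and of 0.859, 1.34 and 0.751 where LNA92a, LNA489 or both were added. Ccne2 had a mean of 2.28 and its highest level, 4.75, in Saline 24.

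Checkpoint and mitotic kinase genes had lower means than Pcna and the helicase subunits Mcm2 to Mcm7, though not lower than every gene above. The 5 spindle checkpoint and anaphase genes Bub1, Bub1b, Cdc20, Cenpe and Cenpf had means of 1.13 to 2.97 FPKM, and the 7 tested mitotic kinase, spindle and cytokinesis genes Aurka, Aurkb, Plk1, Tpx2, Kif20a, Kif23 and Birc5 had means of 1.06 to 2.62. In LNA489 7 no read was found for 5 of these 12 genes (Bub1b, Cdc20, Tpx2, Kif20a and Birc5), which allows levels of up to 0.0410 to 0.103 FPKM, counting error only. Birc5, the survivin gene, also had 0 reads in HDL 4 (up to 0.0554 FPKM). Kif11 had its only read in Saline 9, and 19 libraries with 0 reads allow up to 0.0291 to 0.0536 FPKM. The Kif11 length in the deposited table (4819 bases) is shorter than its exons in GENCODE M21 (7461). Also shorter were Cdc45 (2252 against 3506), Cdk1 (3445 against 4934), Cdkn1a (2223 against 3553) and Kif20a (3796 against 4338). Each of these 4 was read in nearly every library, as was the motor gene Kif23. The Kif11 value is reported as uncertain. Kif20a shares 29.3% of its exon bases with Cdc23 on the other strand.

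Cdkn1c and Cdkn1a exceeded every other member in mean level at the deposited gene lengths. For Cdkn1a that length (2223 bases) is shorter than its exons in GENCODE M21 (3553), while Pcna has 2400 in both. The rank of Cdkn1a above Pcna therefore depends on the length used. Cdkn1c (ENSMUSG00000037664.13, chr7:143458339-143461050) stood at 10.7, 41.4, 185 and 51.2 FPKM in Saline 1, 2, 9 and 24, and at 14.4, 10.2, 6.40 and 19.1 in HDL 3, 4, 11 and 23. It stood at 7.14, 15.8, 9.67 and 30.4 in the LNA92a mice, at 18.4, 124, 29.1 and 10.5 in the LNA489 mice, and at 27.6, 46.0, 29.3 and 81.8 in the dual mice, each in the mouse order given for Mki67. All 4 dual mice lay above all 4 HDL mice, and 3 of 4 saline mice did. Antisense Gm44732 covers 30.7% of its exon bases, and since the strand of counting is not given in the sources used here, reads of the pair cannot be told apart. Cdkn1a (chr17:29090976-29100727) stood at 16.3, 16.8, 9.26 and 7.69 FPKM in the saline mice, at 9.54, 36.7, 9.30 and 9.06 in the HDL mice and at 18.0, 13.3, 12.4 and 18.5 in the LNA92a mice. The LNA489 mice had 28.2, 11.6, 17.1 and 12.7 FPKM and the dual mice 28.2, 13.3, 21.7 and 14.6. Its highest levels were in HDL 4, LNA489 7 and dual 8, and the first 2 of these had the lowest Mki67.

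Most division genes were high or low together in the same mice. Over the 31 tested members other than Cdkn1a and Cdkn1c, HDL 11 had the highest level in 28 and was among the highest 2 in 31, and Saline 9 was among the highest 2 in 26. LNA489 13 was among the highest 4 in 25. HDL 4 was lowest for 14 members and LNA489 7 for 11. The summed level of the 31 members ran from 37.8 FPKM in HDL 4 and 55.7 in LNA92a 18 to 266 in Saline 9 and 391 in HDL 11. The LNA92a mice were the most alike, at 68.7, 67.6, 65.4 and 55.7, while the HDL mice, at 100.2, 37.8, 391 and 97.9, spanned the whole range of the series. The spread of the 31-member mean between mice of a group was 0.68 on the log2 scale (SD, 15 degrees of freedom). HDL 11 and Saline 9 also had the most genes with a read, 23365 and 23212. LNA489 7 had the fewest, 17378, and HDL 4 had 19736. Saline 1 had 19532 beside a summed member level of 121 FPKM. The part of gene detection in this pattern was not tested.

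**Figure D2:**
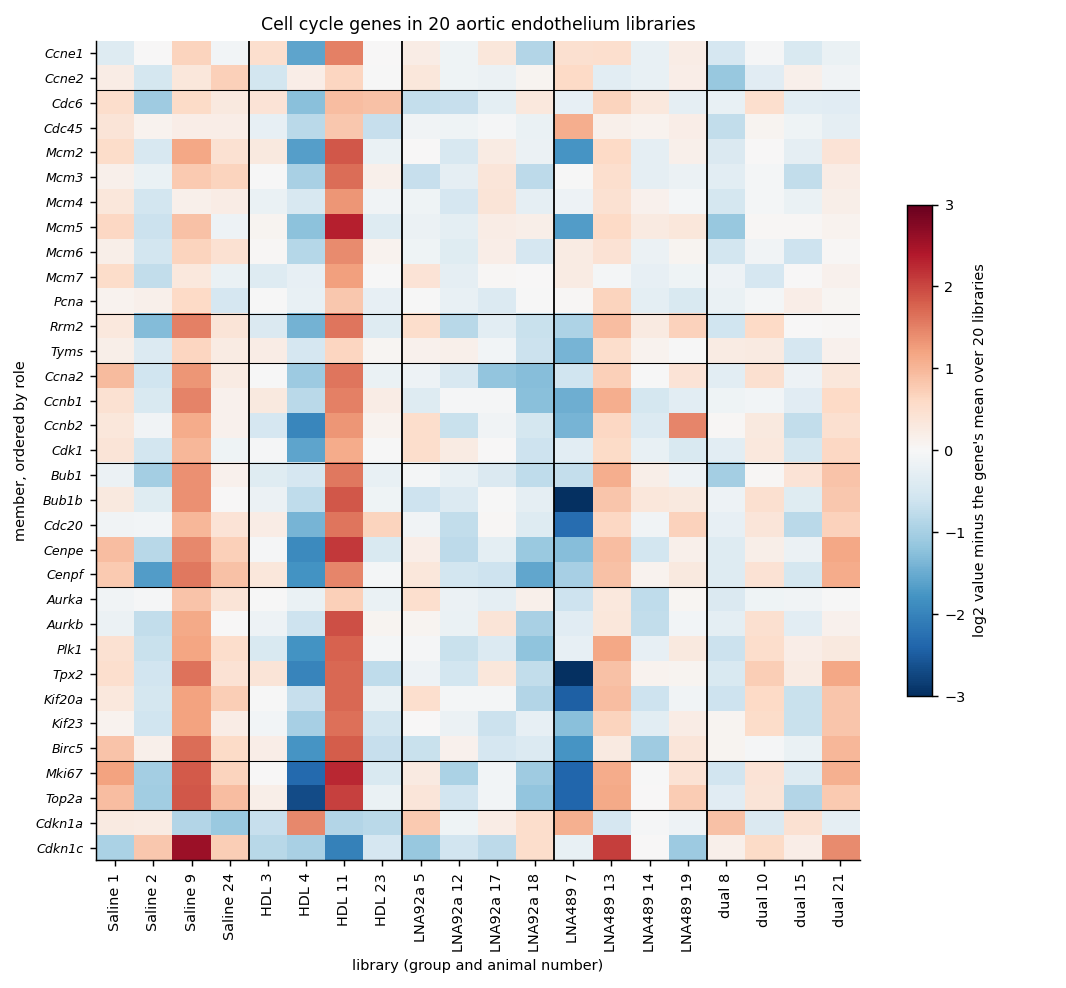
Log2 value of each of 33 tested members minus its mean over 20 libraries (colour, clipped at 3 either way), with libraries in columns by treatment group and members in rows by role. HDL 11 and Saline 9 are red for nearly all division genes, HDL 4 and LNA489 7 are blue, and Cdkn1a is higher in the latter mice.

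Each member was set against the mean of the other 30 over the 20 libraries, as a description: the libraries share depth and cell makeup, and no test was made. Pearson's r ran from 0.22 to 0.97 with a median of 0.85, and was over 0.8 for 24 of the 31. Mki67 (0.97), Cenpe (0.97), Top2a (0.96) and Mcm2 (0.95) were closest to the rest. Loosest were Ccne2 (0.22), Cdc45 (0.35), Mcm7 (0.55), Pcna (0.56), Cdc6 (0.64) and Ccne1 (0.68), which are genes of G1/S or replication. The mitotic kinase gene Aurka came next, at 0.70, and at 0.47 without HDL 11 and Saline 9. Without HDL 11 and Saline 9 the r of Mki67 was 0.98 and of Top2a 0.97, but that of Mcm7 and of Pcna was 0.17, of Cdc45 0.11 and of Ccne2 -0.07. Cdkn1a ran opposite to the 31-member mean (r = -0.76, and -0.72 without those 2 mice), whereas Cdkn1c had r = 0.16 and 0.33.

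The ratio of replication to mitosis genes varied between mice. The summed FPKM of the 9 replication genes was 1.59 times that of the 12 checkpoint and mitotic genes in Saline 9 (95.7 against 60.1) and 2.05 times in HDL 11 (171 against 83.6). In HDL 4 the ratio was 6.92 (27.3 against 3.95) and in LNA489 7 it was 12.5 (44.9 against 3.60). The other 16 mice lay between 1.74 and 5.17. LNA489 7 had a replication sum inside the range of the other mice beside the lowest mitosis sum of all 20, and its Cdc45 level (4.37 FPKM) was the highest of its group. That library also had the fewest genes with a read, 17378 against 19532 to 23365 in the other 19, from 15.7 M assigned reads. Its replication genes were uneven, with 34 reads for Mcm5 and 49 for Mcm2 against 626 for Mcm6. The part of this low gene number in the ratio and in the mitotic genes without a read was not tested.

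No member passed the test between treatment groups. In each of the 5 comparisons and in the F-test over the 5 groups, 0 of 33 members passed an adjusted p under 0.05 (limma, Benjamini-Hochberg over 16848 genes), and the share of all genes called was 0% in each. With 4 mice a group the median standard error of a difference was 0.36 on the log2 scale. At an unadjusted p under 0.05, Cdkn1c was the only member to pass, in HDL against saline (1 of 33, where 1.67% of all genes passed) and in dual against HDL (1 of 33, 2.47% of all genes). None passed in LNA92a against HDL (3.53% of all genes), LNA489 against HDL (3.79%), dual against saline (1.05%) or the F-test (1.68%). HDL serves in 4 of these comparisons and saline in 2, so the comparisons are not independent. The division genes moved together across mice, so counts of genes higher or lower are not independent either.

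No division gene passed the test with HDL alone. Relative to saline, the median difference of the 31 members was -0.20 on the log2 scale (median of all genes 0.03), with 24 of 31 lower (46% of all genes were lower). Mki67 differed by -0.80 ± 0.84 (SE) and Top2a by -0.83 ± 0.86, both smaller than their error. Among the members with the smallest p, Cdkn1c differed by -1.87 ± 0.66 (limma, adjusted p = 1.00), with 72.1 ± 77.2 FPKM in saline and 12.5 ± 5.49 in HDL mice (SD, n = 4 each). Its log2 values were 8.61, 10.4, 12.1 and 10.3 in saline mice, highest in Saline 9, and 8.74, 8.60, 7.56 and 9.08 in HDL mice. Summed macrophage and monocyte markers ran from 1624 to 10521 FPKM in saline mice and from 1023 to 3775 in HDL mice. Their part in the Cdkn1c difference was not tested. Birc5, which counters cell death and helps chromosome segregation, had 1.43, 0.717, 4.12 and 1.51 FPKM in saline mice and 0.880, 0, 4.65 and 0.247 in HDL mice (-0.93 ± 0.61). Cdc45 had 2.40, 1.90, 2.73 and 2.71 FPKM in saline mice and 1.51, 0.586, 4.77 and 0.914 in HDL mice (-0.46 ± 0.31). In both genes HDL 11 was above every saline mouse and the other 3 HDL mice were below most of them. The members with the smallest p in the higher direction were Aurkb, Mcm7 and Cdc6, at 0.25 ± 0.49, 0.16 ± 0.32 and 0.15 ± 0.46. Aurkb, a kinase of chromosome attachment, spanned 0.345 to 3.77 FPKM in saline and 0.384 to 7.29 in HDL mice.

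Single mice set the direction of that median. Without HDL 11 it was -0.69 with all 31 members lower, without HDL 4 it was 0.14 with 22 of 31 higher, and without Saline 9 it was 0.03. B cell and T and NK cell markers were highest in HDL 11 and T and NK markers were lowest in HDL 4. The part of these cell types in the difference was not tested.

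Most division genes had lower values in the LNA92a mice than in the HDL mice, and none passed the test. The median of the 31 members was -0.27 (all genes -0.06), and 28 of 31 were lower (55.8% of all genes). The smallest p values in that direction belonged to Ccna2 (-0.85 ± 0.49), Ccnb1 (-0.73 ± 0.53) and Mcm3 (-0.56 ± 0.42), with an adjusted p of 0.867 or more in limma. Ccna2 stood at 1.58, 1.71, 0.606 and 0.653 FPKM in LNA92a mice and at 2.85, 0.831, 11.4 and 2.50 in HDL mice. Mcm3, a helicase subunit, stood at 2.32, 4.68, 5.45 and 2.62 against 6.39, 2.31, 24.8 and 7.36. HDL 4 lay inside the range of the LNA92a mice for Ccna2 and just under it for Mcm3, so the groups overlapped. Mki67 differed by -0.33 ± 0.84. On the higher side were Cdkn1a (0.59 ± 0.49), Cdkn1c (0.59 ± 0.66) and Cdc45 (0.12 ± 0.31). Without HDL 11 the median turned to 0.18 with 23 of 31 higher, and without HDL 4 it was -0.73.

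Division genes differed in both directions between the LNA489 mice and the HDL mice. Their median difference was -0.12 (all genes -0.05), with 21 of 31 lower (55.2% of all genes). Kif20a, a cytokinesis motor, had -0.76 ± 0.63, with 0, 3.26, 0.726 and 1.06 FPKM against 1.32, 0.480, 6.68 and 1.10 in HDL mice. Ccnb1 (-0.61 ± 0.53) and the centrosome kinase Aurka (-0.32 ± 0.30, spanning 0.479 to 1.96 FPKM against 0.819 to 3.07) came next. Cdc45 was the nearest to passing on the higher side (0.63 ± 0.31, limma, adjusted p = 0.920), with 4.37, 2.43, 2.40 and 2.13 FPKM against 1.51, 0.586, 4.77 and 0.914: 3 of 4 HDL mice lay below all LNA489 mice. Cdkn1c differed by 1.28 ± 0.66 and by 0.65 ± 0.61 without LNA489 13, whose 124 FPKM was the highest of that group. Rrm2, the small subunit of ribonucleotide reductase, differed by 0.40 ± 0.61, with a range of 1.38 to 8.99 FPKM against 0.794 to 16.1. The median was 0.36 without HDL 11 and -0.51 without HDL 4.

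In the dual group, Cdkn1c was higher than in HDL mice without overlap. The difference was 1.67 ± 0.66 on the log2 scale (limma, adjusted p = 0.998), or 46.2 ± 25.2 against 12.5 ± 5.49 FPKM (SD, n = 4 each), and 1% of all genes were higher without overlap in this comparison. With the endothelial, macrophage and B cell marker means in the model it was 0.56 ± 0.54. The summed macrophage and monocyte markers, with all 18 markers above 0 in each library, ran from 3582 to 9726 FPKM in dual mice and from 1023 to 3775 in HDL mice, and their part in the difference was not tested. Against saline, Cdkn1c differed by -0.20 ± 0.66, and by 0.39 without Saline 9.

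The dual group's division genes had a median difference of -0.07 from HDL (all genes -0.03, 18 of 31 lower against 53.6% of all genes). The replication genes (9 of 9 lower, median -0.28) and the mitotic kinase genes (4 of 7 higher, median 0.20) included no gene that passed, and a difference between these roles was not tested. Members with the smallest p were Mcm6 (-0.49 ± 0.36; 5.38, 9.36, 5.31 and 10.0 FPKM against 9.14, 3.66, 28.2 and 9.95), Ccne2 (-0.42 ± 0.33; 0.648 to 2.52 against 1.34 to 4.49) and Mcm3 (-0.44 ± 0.42; 3.37 to 8.32 against 2.31 to 24.8). On the other side stood Cdkn1c, the spindle assembly factor Tpx2 (0.57 ± 0.78; 1.16 to 5.40 against 0.134 to 8.61) and Cdkn1a (0.39 ± 0.49). Without HDL 11 the 31-member median was 0.34, and without HDL 4 it was -0.38.

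Against saline, every one of the 31 division genes was lower in the dual group (49.8% of all genes were), with a median of -0.35 (all genes 0.00), and none passed. Differences ran from -0.67 ± 0.86 (Top2a) to -0.00069 ± 0.54 (Bub1). Ccne2 (-0.54 ± 0.33), Cdc45 (-0.49 ± 0.31) and Aurka (-0.44 ± 0.30) had the smallest p, with an adjusted p of 1.00. Cdc45 stood at 0.770, 2.45, 1.65 and 1.62 FPKM in dual mice against 2.40, 1.90, 2.73 and 2.71. Cdkn1a was the only member on the higher side (0.52 ± 0.49). Without Saline 9 the median was -0.08 with 20 of 31 lower, so the count and the size of the median both depended on that mouse.

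**Figure D3:**
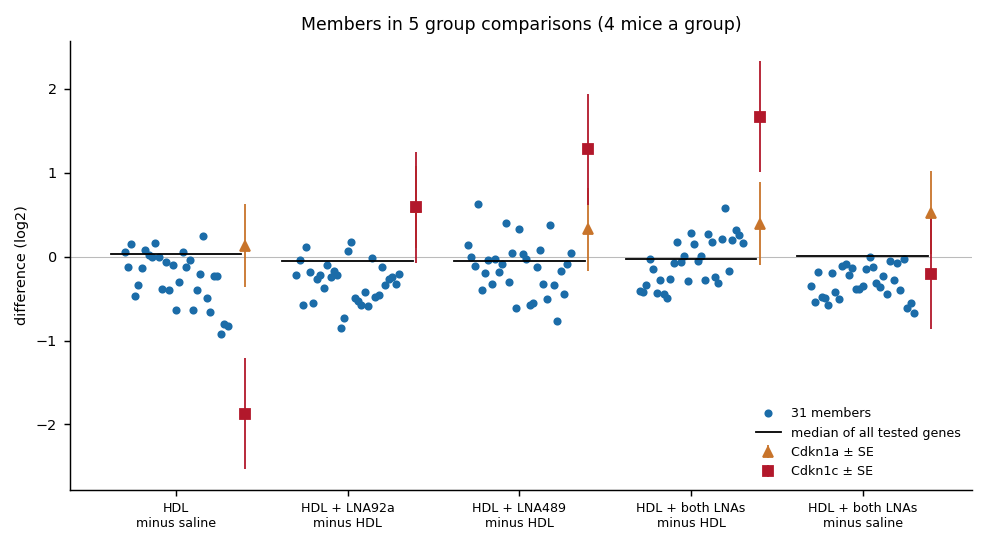
Log2 difference of each member in 5 group comparisons of 4 mice a group: points are 31 division genes, the triangle is Cdkn1a and the square Cdkn1c with their standard errors, and the black line is the median of all tested genes. No member passed adjusted p under 0.05; Cdkn1c lies farthest from 0, at -1.87 in HDL against saline and 1.67 in dual against HDL.

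The division genes followed T and NK cell markers from mouse to mouse. The slope of each member on the mean log2 value of a marker list was fitted with limma within treatment groups, in log2 units per log2 unit, with adjustment over all 16848 genes. On the T and NK cell mean (15 markers, such as Cd3e, Cd8a and Nkg7), 28 of 33 members rose (12.7% of all genes did) and 1, Cdkn1a, fell (10.9%). The median slope of the 31 division genes was 0.67, against 0.04 over all genes. Mki67 and Top2a had the steepest slopes, 1.28 ± 0.12 (adjusted p = 2.19e-06 in limma) and 1.29 ± 0.13 (3.83e-06). Cenpe, a kinetochore motor, had a slope of 1.02 ± 0.10 (5.46e-06). In bulk RNA this does not show which cells divided.

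By role, all 4 cyclin and kinase genes rose with the T and NK mean (Cdk1 0.62 ± 0.11, Ccnb1 0.66 ± 0.14, Ccnb2 0.89 ± 0.11), as did all 5 checkpoint genes, all 7 mitotic kinase genes and both nucleotide enzymes. Of the replication genes 7 of 9 rose, led by Mcm2 (0.85 ± 0.10) and Mcm5 (0.79 ± 0.15), while Cdc45 (0.15 ± 0.12) and Pcna (0.19 ± 0.10) did not pass. Ccne1 rose (0.49 ± 0.14) and Ccne2 did not pass (0.07 ± 0.13). Cdkn1a fell (-0.50 ± 0.15, adjusted p = 0.0274 in limma) and Cdkn1c had 0.04 ± 0.26. The T and NK mean itself was lowest in HDL 4 (6.14), where Cd3e stood at 0.493 FPKM, and highest in HDL 11 (9.73), where it stood at 42.8. Without HDL 4, 19 members passed in place of 29, while all genes that passed fell from 3987 to 865 of 16848. Without both HDL 11 and Saline 9, 17 members passed (7.73% of all genes).

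**Figure D4:**
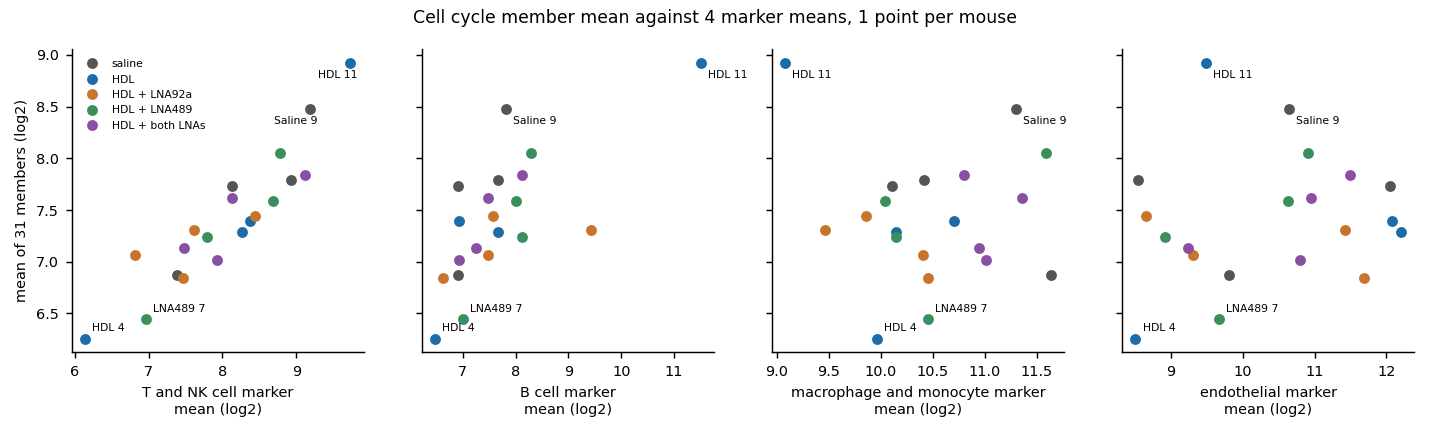
Mean log2 value of 31 division genes against the mean log2 value of T and NK cell, B cell, macrophage and monocyte, and endothelial markers; each point is 1 of 20 mice, coloured by group. The points rise along the T and NK axis from HDL 4 (6.14) to HDL 11 (9.73), and HDL 11 stands alone on the B cell axis at 11.5.

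Simple correlations over the 20 mice gave the same order. Of 33 members, 29 had a Pearson r and 28 a Spearman rho with the T and NK mean that passed adjustment over 132 relations (100000 permutations), with a median r of 0.763, of 0.659 without HDL 11 and HDL 4, which are farthest from the median, and of 0.791 with group means removed. Mki67 had r = 0.932 (permutation p = 1e-05, the smallest they can give, adjusted p = 1.20e-04) and rho = 0.922, with r = 0.890 without those 2 mice. Cdkn1a had r = -0.653 (permutation adjusted p = 0.00652) and rho = -0.617 (adjusted p = 0.0161).

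Many division genes also rose with B cell markers, with calls that depended on HDL 11. On the B cell mean (14 markers), 23 of 33 members rose (6.26% of all genes) and none fell (1.82%), with a median slope of 0.47 for the 31 division genes (all genes 0.01). Helicase subunits had the smallest p: Mcm4 rose by 0.35 ± 0.05 (adjusted p = 5.58e-04 in limma), Mcm3 by 0.43 ± 0.07 and Mcm5 by 0.61 ± 0.12. Mki67 rose by 0.81 ± 0.17. The B cell mean was 11.5 in HDL 11, 9.42 in LNA92a 17 and 6.48 to 8.29 in the other 18 mice. Without HDL 11 no member passed (0.338% of all genes did), although the median slope was 0.48, and without HDL 4 9 passed.

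When the endothelial, macrophage, B cell and T and NK means were fitted in 1 model, 7 members rose with the T and NK mean (Ccna2, Ccnb2, Cenpe, Cenpf, Mcm2, Mki67 and Top2a, where 2.39% of all genes passed) and 1, Mcm3, with the B cell mean (2.52%). In the same model 2 members passed on the endothelial mean and 2 on the macrophage and monocyte mean. This model was chosen after seeing the data. Whether the slopes on the T and NK and the B cell lists differ was not tested.

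The endothelial mean had no such relation to division genes. Of 33 members, 1 passed, Cdkn1a, which fell (-0.32 ± 0.11, adjusted p = 0.0328 in limma), where 28.8% of all genes passed in either direction and 14.7% fell. Mki67 had 0.15 ± 0.22 and Top2a 0.24 ± 0.22, and the median slope of the 31 was 0.09 (all genes 0.02). The Cdkn1a call was lost without Saline 1, Saline 24, HDL 3, HDL 4, HDL 23 or LNA92a 5. Without HDL 11, 4 members passed, and 6067 of all 16848 genes did, against 4856 with it. The members thus passed less often than all genes did. No member passed on the macrophage and monocyte mean (0.932% of all genes), where Cdkn1c had the steepest slope, 1.13 ± 0.32 (adjusted p = 0.127 in limma). Without group means in the model Cdkn1c rose by 1.30 ± 0.23 (adjusted p = 0.00183), and across the 20 mice it had r = 0.775 and rho = 0.785 with that mean (permutation adjusted p = 2.64e-04 and 6.00e-04), with r = 0.731 without HDL 11 and Saline 2. In these simple correlations 3 of 33 members passed adjustment by Pearson r and 2 by Spearman rho. The median r of the 33 with the macrophage and monocyte mean was -0.030. It was 0.350 without HDL 11 and Saline 2, and 0.211 without HDL 11 alone. HDL 11 had the lowest macrophage and monocyte mean, 9.08.

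**Figure D5:**
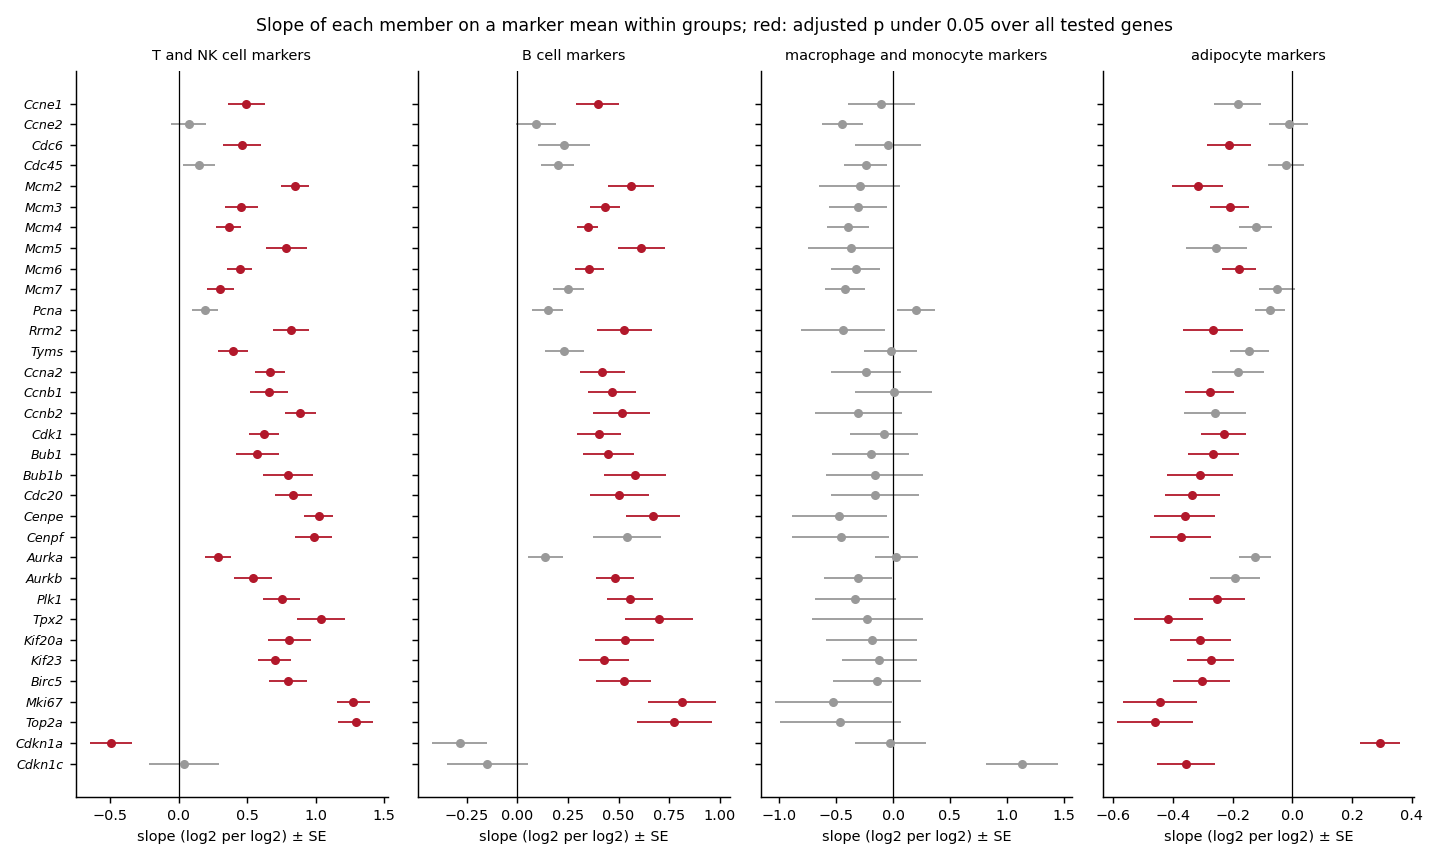
Slope ± SE of each of 33 members on the mean of T and NK cell, B cell, macrophage and monocyte, and adipocyte markers, fitted within groups (20 mice); red marks an adjusted p under 0.05 over 16848 genes. On the T and NK axis 28 members are red to the right and Cdkn1a red to the left, and on the adipocyte axis 20 are red to the left and Cdkn1a red to the right.

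Division genes ran against adipocyte and fibroblast markers, as many genes did. On the adipocyte mean 20 members fell (21.1% of all genes) and Cdkn1a rose (18.9%), with Top2a at -0.46 ± 0.13, Mki67 at -0.44 ± 0.13, Cdkn1c at -0.36 ± 0.10 and Cdkn1a at 0.29 ± 0.07. On the fibroblast mean 25 fell (20.7% of all genes) and Cdkn1a rose (18.9%). Both relations leaned on HDL 4: without it the members that passed numbered 5 on the adipocyte mean and 9 on the fibroblast mean. Of all 16848 genes, 4695 and 4607 passed without HDL 4 in either direction, against 6728 and 6686 with it. At these counts the members passed no more often than all genes did. The fibroblast count of members was 17 without Saline 9 and 16 without LNA489 13. None passed on the smooth muscle mean (0.0119% of all genes) or on the adrenal cortex mean (0.148%), though adrenal markers were at 13.5 in Saline 2 and 12.7 in dual 10 and at 5.02 to 6.83 in the rest.

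Other genes of the pathway were fitted in the same way on the T and NK mean, with which 12.7% of all tested genes rose and 10.9% fell. Of 28 other mitosis genes 25 rose and none fell: the kinetochore gene Knl1 by 1.09 ± 0.11, the spindle gene Dlgap5 by 0.77 ± 0.09 and the midzone gene Prc1 by 0.91 ± 0.11. Of 21 other replication genes 11 rose, among them Pole, a replicative polymerase (0.65 ± 0.13), Dbf4, the activator of Cdc7 kinase (0.50 ± 0.10), and the ligase gene Lig1 (0.42 ± 0.09). Of 17 regulators around E2F, RB and MuvB 7 rose, led by E2f2 (0.85 ± 0.11), Foxm1 (0.95 ± 0.14) and the pocket protein gene Rbl1 (0.62 ± 0.10).

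Of 10 G1 genes, against the same shares of all genes, Ccnd3 (0.45 ± 0.07), a D-type cyclin, and Cdkn1b (0.22 ± 0.08) rose and Cdkn2c (-0.60 ± 0.19), a CDK4/6 inhibitor, fell. Of 12 other p53 targets 2 fell (Eda2r by -0.44 ± 0.09 and Phlda3 by -0.49 ± 0.11) and none rose, a count near the 10.9% of all genes that fell. Of 9 imprinted growth genes, 1 rose and 3 fell, with Kcnq1ot1, the antisense transcript of the Cdkn1c domain, at 0.41 ± 0.10, Ndn at -0.54 ± 0.13 and Grb10 at -0.49 ± 0.12. In the 5 group comparisons none of these lists had a gene past adjusted p under 0.05, where 0% of all genes passed.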

How the data were processed

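Total RNA of 20 mice was sequenced, and 2 tables were used. Per the submitters' processing notes, cutadapt 1.16, STAR 2.5.3a, FastQC, featureCounts 1.15.29, DESeq2 1.18.1 and build GRCm38.p5 were used, listed without roles; annotation release, strand and handling of reads with several matches are not given in the sources used here. The authors deposited variance-stabilized counts on a log2 scale for 20442 genes, in which differences of weak genes are compressed, and FPKM for 32081 genes with gene lengths, scaled to all assigned reads including ribosomal ones. Reads were recovered from the deposited FPKM and lengths (within 0.1 of a whole number) and sum to 11.6 to 21.4 M per library; no test used them.

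Log2 values of 16848 genes with a mean of at least 0.5 FPKM were fitted with limma 3.58.1 (R 4.3.3; mean trend, 15 residual degrees of freedom, 2-sided, Benjamini-Hochberg, 0.05), with 5 group means and, for slopes, 1 marker mean added. Correlations used 100000 permutations. The fit was tested on simulated data. Alternatives were no filter, a minimum of 2 FPKM, log2(FPKM + 0.1) and log2(FPKM + 1), median centring, array weights, marker means as covariates, no group means and leaving out mice. Levels are FPKM, differences and slopes are log2. Gene positions are from GENCODE M21. Named in full were 8 members (Mki67, Top2a, Cdk1, Ccnb1, Mcm5, Ccne1, Cdkn1a, Cdkn1c), the 3 members with the smallest p in each direction of a comparison, and up to 3 genes of a pathway list; other members were named for extreme values, seen beforehand. The members and lists were chosen with earlier results of these data known.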

Additional observations from a re-analysis of the deposited data

Results flagged for a closer look

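In each group of 4 mice, a member was listed where 1 mouse lay far outside the other 3 (its gap to the nearest mouse, over the group's range, was above Dixon's 95% critical value). This occurred 21 times in 165 groups of values. A rate of about 1 in 20 by chance holds for normal and independent values. Here the values are untransformed FPKM of genes that moved together across mice, so 21 cannot be read against that rate. HDL 11 accounted for 11, each time as the highest HDL mouse: Mcm4 at 26.7 FPKM, Mcm5 at 22.7, Mcm7 at 18.0, Rrm2 at 16.1, Bub1 at 4.25, Bub1b at 9.96, Cenpe at 8.85, Aurkb at 7.29, Kif20a at 6.68, Kif23 at 4.81 and Mki67 at 49.9. LNA489 13 was highest of its group in 3: Mcm3 at 9.97 FPKM, Mcm6 at 12.8 and Cdkn1c at 124. The other 7 were Cdkn1a at 36.7 in HDL 4, Cdc45 at 4.37 in LNA489 7, Cdc6 at 1.495 in dual 10, Birc5 at 2.20 in dual 21, Rrm2 at 3.88 (highest) and Bub1b at 0.685 (lowest) in LNA92a 5, and Ccne2 at 1.27 (lowest) in LNA92a 17.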

How the results depend on the processing

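The count of 0 members past the threshold held in the 5 group comparisons and the F-test under every alternative run reported here (voom on recovered reads, listed beforehand, is left out because the deposited values are not counts), as did the count of 0 on the smooth muscle and adrenal means. No paired analysis was possible because no animal number occurs in more than 1 group. Leaving out HDL 11 with Saline 9 and fitting 4 marker means together were chosen after seeing the data. Members past the threshold on the T and NK mean numbered 29, with 17 at a minimum of 2 FPKM (fewer members tested), 17 without HDL 11 and Saline 9, 7 with 4 marker means and 19 to 29 leaving out 1 mouse each. On the B cell mean 23 became 0 without HDL 11 and Saline 9, 1 with 4 marker means, and 0 to 25 leaving out 1 mouse. On the fibroblast mean 26 became 16 at 2 FPKM, 13 without HDL 11 and Saline 9, and 9 to 27 leaving out 1 mouse. On the adipocyte mean 21 became 13 at 2 FPKM and 5 to 25 leaving out 1 mouse. On the endothelial mean 1 became 2 with log2(FPKM + 0.1), 2 with log2(FPKM + 1), 4 without HDL 11 and Saline 9, 3 with 3 marker means, 2 with 4 and 0 to 4 leaving out 1 mouse. On the macrophage mean 0 became 1 (Cdkn1c) without group means, with log2(FPKM + 0.1) or with log2(FPKM + 1), and 2 with 3 or with 4 marker means. The cause was not tested. Leaving out 1 mouse, all genes past the threshold numbered 865 to 4973 on the T and NK mean and 57 to 1608 on the B cell mean. They numbered 4607 to 6832 on the fibroblast, 4695 to 7074 on the adipocyte and 3510 to 6067 on the endothelial mean. The following uncalled differences changed sign. In HDL against saline, Cdkn1a was -0.23, Aurkb -0.021 and Mcm7 -0.048 with array weights; with marker covariates Aurkb was -0.038, Mcm7 -0.16 and Cdc6 -0.041; without HDL 11 and Saline 9 Mcm7 was -0.089. Leaving out 1 mouse gave -0.43 to 0.35 for Cdkn1a, -0.29 to 0.61 for Aurkb, -0.20 to 0.35 for Mcm7 and -0.23 to 0.65 for Cdc6. In LNA92a against HDL, Mki67 was 0.037 with covariates and 0.47 without HDL 11 and Saline 9 (-1.06 to 0.47 leaving out 1 mouse), and Cdc45 was -0.16 with log2(FPKM + 0.1) and -0.18 with log2(FPKM + 1) (-0.072 to 0.46), where log2(FPKM + 0.1) moved the median of all genes to -0.47. In LNA489 against HDL, Mki67 was 0.22 with array weights, 0.12 with covariates and 0.71 without HDL 11 and Saline 9 (-0.82 to 0.71), and Rrm2 ran from -0.017 to 0.99. In dual against HDL, Ccne2 was 0.042 with covariates and Mcm3 0.049 without HDL 11 and Saline 9 (-0.83 to 0.049), while Mki67 ran from -0.48 to 1.05 and Tpx2 from -0.038 to 1.20. In dual against saline, Cdkn1c was 0.39 without HDL 11 and Saline 9 (-0.79 to 0.39). The Mki67 slope was -0.022 on the endothelial mean with 4 marker means (-0.068 to 0.29 leaving out 1 mouse), and on the macrophage mean 0.027 with log2(FPKM + 1), 0.25 with 3 and 0.091 with 4 marker means (-1.19 to 0.022). The Cdkn1c slope on the T and NK mean was -0.070 with 4 marker means (-0.10 to 0.25). Members with few reads, such as Ccnb1 with 3 reads in LNA489 7, limit the precision of mitotic genes in the mice with least of them.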
